A study of Mus musculus with 32 samples.

Results

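Hyperplasia, the earliest overgrowth of the mammary ducts and lobules in a mouse tumour model, was compared with normal gland over 19907 genes, using 8 of the 32 libraries of the series: 5 of hyperplasia and 3 of normal gland, chosen by the stage named in their labels. All the tissue came from female mice that carried MMTV-PyMT, R26-CBW and K8-CreERT2, so the normal gland carried the same transgenes as the hyperplasia and lay in tumour-bearing animals. In these mice the polyoma middle T oncogene is driven by the mouse mammary tumour virus promoter, which is active in mammary epithelium. A multicolour reporter in the Rosa26 locus is recombined by a tamoxifen-dependent Cre under the keratin 8 promoter, which marks luminal cells and their progeny. Tamoxifen (5 mg, injected into the peritoneum) was given to all groups at 5 weeks of age, and regions were cut out by laser from 7 µm sections once tumours had reached their largest permitted volume. RNA from each region was amplified as cDNA and sequenced.

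The hyperplasia regions 21, 22 and 33 lay in a tumour core, region 44 at a tumour border and region 46 in tissue not surrounded by tumour. Regions 21 and 46 were of the green clone colour, and 22, 33 and 44 of the red. Normal gland 18 was a red region from within a tumour core, whereas normal 28 and 30 were pools of tissue gathered at several places. The spread between the 2 pools is therefore not the spread between single regions. The series states 3 animals and ties no region to an animal, so regions share animals. The p-values below therefore measure spread between libraries, not between animals. The edgeR fit takes that spread from all 32 libraries of the 5 stages, and the exact permutation tests use these 8 alone.

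Mammary ducts consist of an inner luminal layer, which includes hormone-sensing cells and milk-forming progenitors, and an outer basal layer of contractile myoepithelial cells, set in a stroma of fibroblasts, fat, vessels and immune cells. Middle T is a membrane-bound scaffold with no enzyme activity of its own. It binds Src-family kinases and protein phosphatase 2A, and its phosphorylated tail recruits phosphatidylinositol 3-kinase, phospholipase C gamma and the adaptor Shc, so that growth signals run without a ligand. Hyperplastic lobules in this model hold cycling epithelial cells inside an intact basement membrane.

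The 8 libraries differed in content before any gene was considered. Total counts were 6575885 to 15226553 in hyperplasia and 3002492 to 9646523 in normal gland. Between 10258 and 16785 gene IDs had a count in hyperplasia, lowest in region 22, against 16045 to 17294 in normal gland (two-sided exact permutation test over 56 splits, p = 0.0893, adjusted p = 0.223 over 5 library measures). The most abundant ID, which has no gene symbol, took 8.91 to 56.5% of the counts in hyperplasia and 21.7 to 31.1% in normal gland. Olfactory, vomeronasal and taste receptor genes, which have no known role in mammary cells, were counted as a further measure, chosen after the data were seen. Of the 1508 such genes, 69 to 461 had a count in hyperplasia and 473 to 591 in normal gland, with no overlap (exact permutation p = 0.0357, the smallest that 5 against 3 allows, adjusted p = 0.179). Their summed level was 886 to 5980 CPM in hyperplasia, against 1390 to 11200 CPM in normal gland, where CPM is the count scaled to a common library size with TMM factors, and normal 28 was the highest of all 32 libraries. Across the 7305 genes averaging 20 CPM or more, which are not independent, Spearman's rho had a median of 0.44 over 10 pairs of hyperplasia libraries, 0.44 over 15 pairs of hyperplasia with normal gland and 0.50 over 3 pairs of normal libraries. By these medians hyperplasia regions were no closer to each other in rank order of genes than to normal gland.

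**Figure D1:**
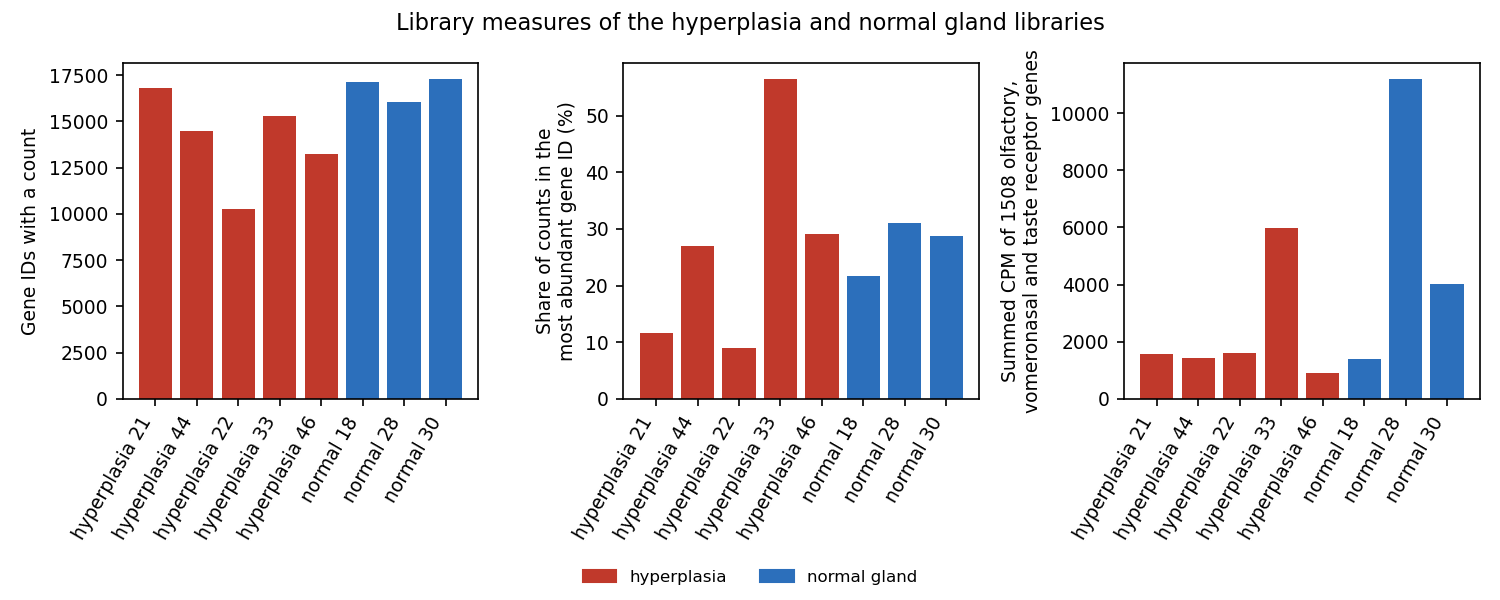
Detected gene IDs, share of counts in the most abundant ID (%) and summed CPM of 1508 sensory receptor genes, with 1 bar per library for 5 hyperplasia and 3 normal gland libraries. Hyperplasia 22 has the fewest IDs (10258), hyperplasia 33 the largest share in a single ID (56.5%), and normal 28 the highest sensory receptor sum (11200 CPM).

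No gene passed between hyperplasia and normal gland: 0 of 19907 (0%) had a Benjamini-Hochberg adjusted p under 0.05 by the edgeR quasi-likelihood test, and the smallest adjusted p was 0.282. At an unadjusted p under 0.05, 732 genes (3.68%) were higher and 1740 (8.74%) lower in hyperplasia. Among other tools on the same genes, DESeq2 gave 138 higher and 345 lower calls by its Wald test, and limma voom 0 higher and 105 lower calls. Read without a model, all 5 hyperplasia libraries stood above all 3 normal libraries for 269 genes (1.35%) and below them for 750 genes (3.77%). All differences below are therefore given as values of these libraries.

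The direction of the difference went with the level of the gene. Over all genes the median log2 difference, hyperplasia minus normal gland, was 0, with 49.5% of genes higher. Among the 7305 genes that averaged 20 CPM or more over the 32 libraries, the median was 0.53 and 71.4% were higher, whereas among the 12602 weaker genes it was -0.82 and 36.8% were higher. In finer steps the median was -1.50 below 1 CPM, -1.51 from 1 to 5 CPM, -0.27 from 5 to 20 CPM, 0.48 from 20 to 100 CPM, 0.71 from 100 to 500 CPM and 0.55 at 500 CPM and above, where 93.7% of 127 genes were higher. Hyperplasia libraries thus stood higher for the well-expressed genes and lower for the weak ones. The second part changed with the normal libraries in the fit, where the filter was rerun each time and kept other genes. Without both pools, which leaves normal 18 alone (22447 genes), the median was 0.20 for weaker genes, 0.41 for well-expressed genes and 0.34 over all. For weaker genes it was -0.47 without normal 18, -0.23 without normal 28 and -0.18 without normal 30. Among tumour core regions, 3 of hyperplasia against the same normal 18 alone, the median was 0 for weaker and 0.24 for well-expressed genes. Of the 269 genes that stood wholly higher, 243 averaged 20 CPM or more (3.33% of such genes), and of the 750 wholly lower 99 did (1.36%). At an unadjusted p under 0.05, 534 of the well-expressed genes were higher (7.31%) and 72 lower (0.986%). That average is taken over 32 libraries of which 3 are normal gland, so genes high in normal gland alone pass it less easily. Averaged over the hyperplasia and normal group means instead, 7359 genes reached 20 CPM, with a median of 0.51 and 69.3% higher. Of these, 239 were wholly higher and 158 wholly lower. At an unadjusted edgeR p under 0.05, 537 of them were higher and 164 lower. With DESeq2 size factors in place of TMM, the median moved to -0.35 over all genes (40.8% higher) and 0.11 over the well-expressed genes (55.3% higher), with -1.16 over the weaker ones. For this reason each gene group below is read against a median of 0.53, the level of well-expressed genes, as well as against 0. When detected genes entered the fit as a covariate, the median was -0.10 for weaker and 0.36 for well-expressed genes, nearer to each other than without it. The part of sensory receptor counts in this pattern was not tested.

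**Figure D2:**
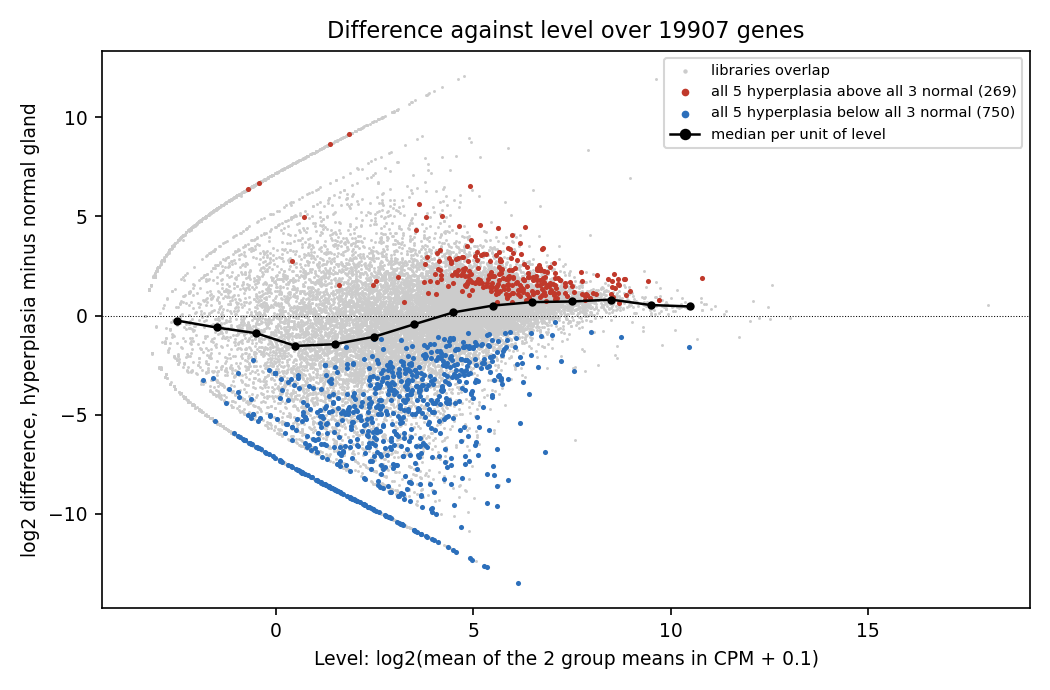
Log2 difference, hyperplasia minus normal gland, against level, log2(mean of both group means in CPM + 0.1), for 19907 genes. Red points are the 269 genes wholly higher, blue the 750 wholly lower, grey the rest, and the black line is the median in steps of 1 log2 unit, which lies below 0 for weak genes and above 0 for well-expressed ones.

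The 10 genes of smallest p that were higher in hyperplasia included 2 surface proteins of mammary epithelium, Cd24a and Plet1, and several genes of cell division. Ttpa, the transfer protein for vitamin E, had 46.5, 150, 128, 23.6 and 253 CPM in hyperplasia 21, 22, 33, 44 and 46, against 6.21, 5.38 and 10.1 CPM in normal 18, 28 and 30 (log2 difference 4.06, SE 0.91, edgeR adjusted p = 0.282, as for each of the 10 genes given here). It is gene 50500, at chr4:20007894-20030822 in GRCm38.p6. The groups did not overlap, and the lowest hyperplasia value belonged to the border region 44. Cd24a, a glycosyl-phosphatidylinositol-anchored surface protein by which mammary epithelium is separated from stroma in cell sorting (gene 12484, chr10:43579169-43584265), had 456, 698, 287, 576 and 1040 CPM in the same hyperplasia regions and 165, 164 and 95.4 CPM in the same normal libraries (log2 difference 2.11, SE 0.49). Plet1, a surface protein of luminal progenitors (gene 76509, chr9:50494525-50505639), had 1100, 1580, 696, 838 and 1100 CPM in hyperplasia, against 492, 252 and 208 CPM in normal gland (log2 difference 1.74, SE 0.46). Both surface genes were higher in every hyperplasia region than in every normal library.

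The leading genes of division were Ube2c, Birc5, Dtymk and Tubgcp4. Ube2c, the ubiquitin-conjugating enzyme of the anaphase-promoting complex (gene 68612, chr2:164769929-164772902), had 200, 36, 132, 172 and 264 CPM in hyperplasia 21, 22, 33, 44 and 46 and 40.6, 13.2 and 12.3 CPM in normal 18, 28 and 30 (log2 difference 2.86, SE 0.70). Hyperplasia 22 was the exception, lying just below normal 18. Birc5, which encodes survivin of the chromosomal passenger complex (gene 11799, chr11:117849237-117855743), had 78.9, 284, 119, 100 and 416 CPM in hyperplasia, against 18.8, 18.8 and 18.3 CPM in normal gland (log2 difference 3.42, SE 0.96). Dtymk, thymidylate kinase, averaged 91.4 ± 29.0 CPM in hyperplasia, against 13.4 ± 6.11 CPM in normal gland (mean ± SD, n = 5 and 3). Tubgcp4, a subunit of the gamma-tubulin ring that starts microtubules, averaged 132 ± 75.9 CPM in hyperplasia, against 15.2 ± 6.60 CPM in normal gland. None of these 3 had an overlap between the groups.

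The remaining leading genes serve mitochondria and translation. Gatc, a subunit of the mitochondrial glutamyl-tRNA amidotransferase, had 39, 384, 158, 139 and 39.5 CPM in hyperplasia 21, 22, 33, 44 and 46 and 12.2, 3.50 and 4.92 CPM in normal 18, 28 and 30. Ak3, the GTP:AMP phosphotransferase of the mitochondrial matrix, had 194, 318, 268, 196 and 62.5 CPM in the hyperplasia regions, where 46 came close to the 61.1 CPM of normal 18, against 32.6 and 20.9 CPM in the pools. Eif4g2, a scaffold of cap-independent translation initiation, averaged 702 ± 272 CPM in hyperplasia, against 194 ± 70.7 CPM in normal gland (mean ± SD, n = 5 and 3).

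**Figure D3:**
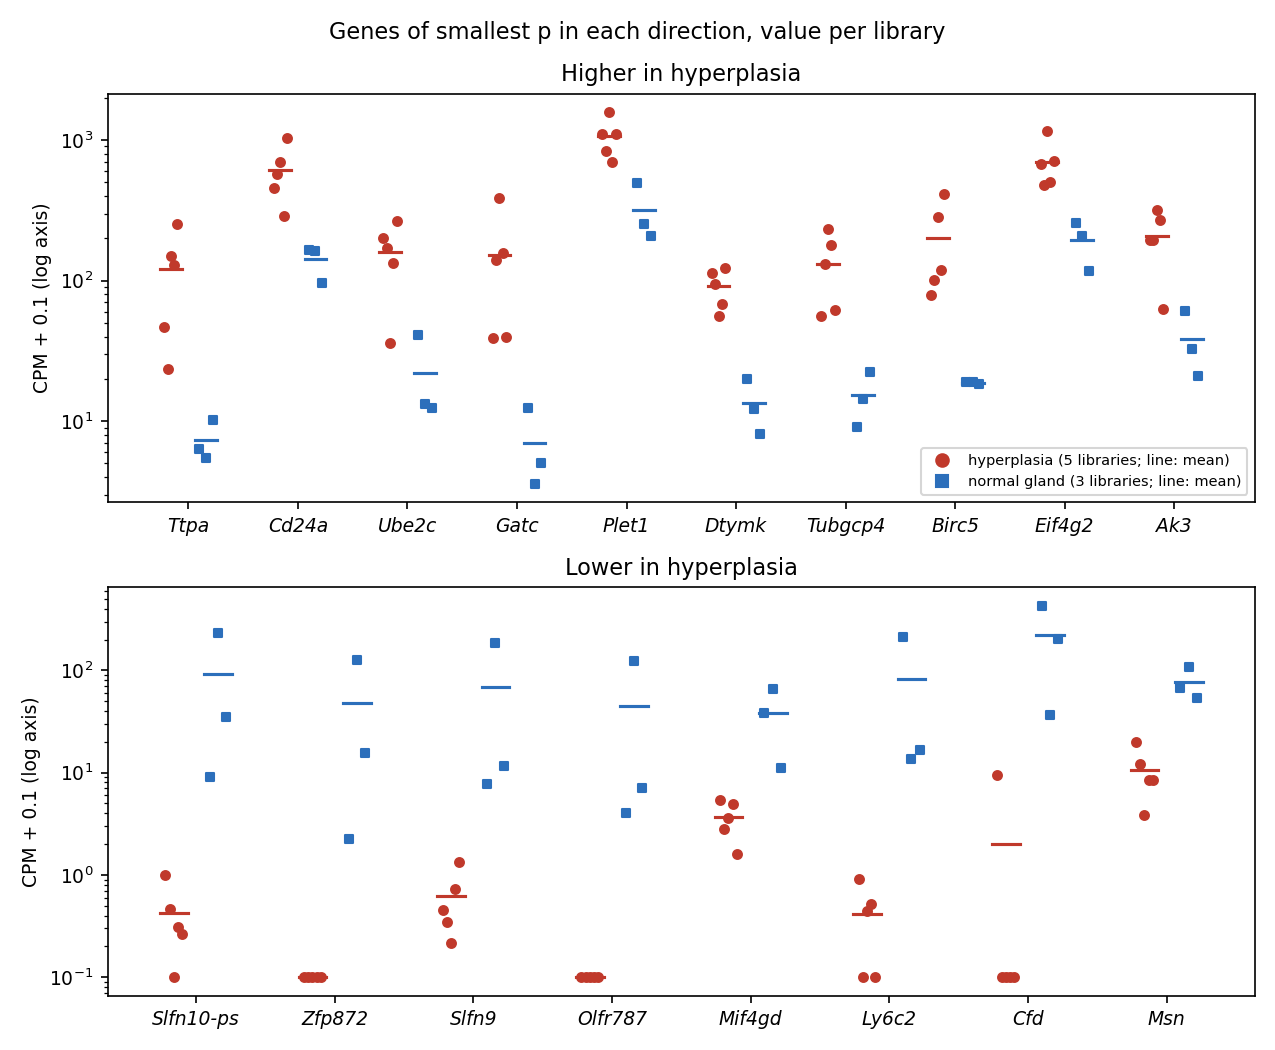
CPM + 0.1 (log axis) per library of the genes of smallest p in each direction, with hyperplasia as red circles left of normal gland as blue squares and a line at each mean. In the upper panel hyperplasia lies above normal gland except for Ube2c in hyperplasia 22 (36 CPM, against 40.6 CPM in normal 18), and in the lower panel it lies below, with no count of Zfp872 or Olfr787 in any of 5 hyperplasia libraries.

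Luminal identity was checked first against the label. The keratins of luminal cells were present in all 8 libraries: Krt8 had 500, 693, 428, 1030 and 696 CPM in hyperplasia 21, 22, 33, 44 and 46, against 290, 231 and 433 CPM in normal 18, 28 and 30 (log2 difference 1.08, SE 0.41, edgeR adjusted p = 0.288). Only hyperplasia 33 fell within the normal range. Krt18 averaged 518 ± 191 CPM in hyperplasia, against 298 ± 135 CPM in normal gland. Epcam, an epithelial adhesion protein, averaged 546 ± 239 CPM in hyperplasia, against 299 ± 7.07 CPM in normal gland (mean ± SD, n = 5 and 3). Cdh1, which encodes E-cadherin, averaged 127 ± 71.3 CPM in hyperplasia, against 136 ± 33.2 CPM in normal gland, with regions 21 and 44 above all normal libraries and 22, 33 and 46 below. Tjp1, a scaffold of tight junctions, had 553 CPM in region 22 and 292 CPM in 46 but 28.4 to 52.6 CPM in the other hyperplasia regions, against 22.1 to 49.6 CPM in normal gland. Of 19 luminal keratin and junction genes, 14 were higher and 5 lower in hyperplasia, with a median log2 difference of 0.89. Desmoplakin (Dsp), which ties keratin to cell junctions, was wholly lower, at 0 to 12.3 CPM in hyperplasia against 21.7 to 90.9 CPM in normal gland. It and the other genes named below for separation of the libraries, beyond the rule for named genes, were chosen after their values were seen.

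Genes of luminal progenitors and milk-forming alveolar cells were mostly higher. Of 21, 16 were higher and 5 lower, with a median log2 difference of 1.24, and 2 were wholly higher and 1 wholly lower. Over all genes 1.35% were wholly higher and 3.77% wholly lower, and over well-expressed genes 3.33% and 1.36%. Lalba, the alpha-lactalbumin subunit of lactose synthase, had 1020, 3690, 1140, 3470 and 4780 CPM in hyperplasia 21, 22, 33, 44 and 46 and 807, 597 and 864 CPM in normal 18, 28 and 30 (log2 difference 1.90, SE 0.61). Every hyperplasia region was above every normal library, though 21 and 33 by little. The list's median was 0.72 without region 22 and 0.27 among tumour core regions alone, where well-expressed genes had 0.29 and 0.24. Csn3, kappa-casein, had 8890, 15000, 3460, 7480 and 10000 CPM in hyperplasia, against 5940, 2360 and 959 CPM in normal gland, with region 33 inside the normal range. Elf5, the transcription factor of alveolar fate, had 169 to 652 CPM in hyperplasia, against 110 to 190 CPM in normal gland, again with 33 inside. The milk proteins of full secretion did not follow as a group: Csn2, beta-casein, reached 7850 CPM in region 46 but 0 to 3.02 CPM in the other hyperplasia regions, against 0 to 0.821 CPM in normal gland. Wap, whey acidic protein, had 924 CPM in region 46, 0 to 96.3 CPM in the others and 10.2 to 83.3 CPM in normal gland. Mfge8, a milk fat globule protein, ran the other way, with 427 to 1440 CPM in hyperplasia against 1620 to 2500 CPM in normal gland.

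Hormone receptors did not separate the groups, and 2 of 15 basal and myoepithelial genes, Mylk and Cnn1, were wholly lower. Of all genes tested 3.77% were wholly lower, and of those averaging under 20 CPM 5.17%. The oestrogen receptor Esr1 had 210 CPM in the border region 44 and 5.45 to 33.1 CPM in the other hyperplasia regions, against 15.6 to 38.5 CPM in normal gland. The progesterone receptor Pgr was at or below 11.1 CPM in hyperplasia and at 0, 56.8 and 0.821 CPM in normal 18, 28 and 30. The prolactin receptor Prlr had 4.44 CPM in region 22 and 94.0 to 222 CPM in the other 4, against 36.9 to 169 CPM in normal gland. Gata3, a factor that maintains luminal cells, averaged 425 ± 184 CPM in hyperplasia, against 288 ± 48.3 CPM in normal gland (mean ± SD, n = 5 and 3). Of 15 basal and myoepithelial genes 12 were lower and 3 higher, with a median of -0.99. Most of these genes were weak, only 3 averaging 20 CPM or more, and the median of genes below that level was -0.82, so the list stood close to its background. Those 3 members were all higher, with a median of 0.17. The list's sums overlapped, at 278 to 516 CPM in hyperplasia, against 428 to 482 CPM in normal gland. Without both pooled normal libraries the median of the list was -0.39, where weaker genes had 0.20. Krt14, a basal keratin, had 274 CPM in region 44 and 0.494 to 40.4 CPM in the other 4 regions, against 28.8 to 117 CPM in normal gland. Krt5 had 24.5 CPM or less in every library. Trp63, the master factor of basal cells, averaged 12.8 ± 11.6 CPM in hyperplasia, against 31.2 ± 28.2 CPM in normal gland. The wholly lower members Mylk and Cnn1 are contractile genes. Mylk, myosin light chain kinase, had 0 to 12.8 CPM in hyperplasia, against 25 to 62.4 CPM in normal gland. Cnn1, calponin, had a count only in region 21 (0.0889 CPM), against 8.97, 0.269 and 7.59 CPM in normal 18, 28 and 30. Its separation rests on traces in region 21 and pool 28, libraries of 7887024 and 3002492 counts, so depth alone may set their order. Krt5, Trp63, Mylk and Cnn1 were thus at or below 63.8 CPM in every library of both groups.

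Cell division genes stood highest among the growth groups relative to the background. Of 52 genes of G2 and mitosis, 44 were higher and 8 lower, with a median log2 difference of 1.47. Of these 52, 13 had an unadjusted edgeR p under 0.05, all higher, and 4 were wholly higher. Over all genes 3.68% reached that p as higher and 1.35% were wholly higher, and over well-expressed genes 7.31% and 3.33%. Counting only the 41 members of the list that averaged 20 CPM or more, 38 were higher with a median of 1.58, against 0.53 for all genes of that level. The median of the whole list was 0.93 with DESeq2 size factors, 1.54 without region 22 and 1.45 among tumour core regions alone, where well-expressed genes had 0.11, 0.29 and 0.24. The core comparison sets 3 hyperplasia regions against normal 18 alone. The summed level of the list was 2650, 1110, 2350, 2050 and 4270 CPM in hyperplasia 21, 22, 33, 44 and 46 and 809, 1320 and 917 CPM in normal 18, 28 and 30. Region 22 alone was inside the normal range. Besides Birc5, the wholly separated members were Kif4, Racgap1 and Cdc25c. Kif4, a chromosome-bound kinesin of the spindle midzone, had 18.8 to 101 CPM in hyperplasia, against 2.42 to 7.80 CPM in normal gland. Racgap1, a subunit of the centralspindlin complex of cytokinesis, had 25.4 to 172 CPM in hyperplasia, against 11.8 to 21.6 CPM in normal gland. Cdc25c, a phosphatase that switches on Cdk1, had 8.20 to 43.8 CPM in hyperplasia, against 0.807 to 7.39 CPM in normal gland. Tpx2, which activates Aurora A on the spindle, had 57.8, 0, 21.4, 39.2 and 66.8 CPM in hyperplasia 21, 22, 33, 44 and 46 and 4.74, 0.538 and 0.616 CPM in normal 18, 28 and 30. It had no count in region 22 and was far above normal gland in the other 4. Mki67, the Ki-67 antigen of cycling cells, had 123 to 357 CPM in hyperplasia, against 22.8, 21 and 140 CPM in normal gland, where pool 30 reached the hyperplasia range. Top2a, topoisomerase II alpha, had 32.1 to 205 CPM in hyperplasia, against 33.7 to 99.8 CPM in normal gland, with wide overlap.

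The promoters of Ube2c and of the separated mitotic genes Birc5, Kif4 and Racgap1 are shown because many genes of G2 and mitosis share promoter elements: the CCAAT box, bound by the factor NF-Y, and the cell-cycle homology element with core TTTGAA, through which the DREAM and MuvB complexes hold such genes silent until late in the cycle. Each window runs 5′ to 3′ on the gene's strand from 250 bases before to 50 bases after the RefSeq start in GRCm38.p6, and capitals mark CCAAT or TTTGAA on either strand, overlapping matches being joined. The windows are chr2:164769679-164769978 (plus strand) for Ube2c, chr11:117848987-117849286 (plus) for Birc5, chrX:100625815-100626114 (plus) for Kif4 and chr15:99651607-99651906 (minus) for Racgap1.
Ube2c: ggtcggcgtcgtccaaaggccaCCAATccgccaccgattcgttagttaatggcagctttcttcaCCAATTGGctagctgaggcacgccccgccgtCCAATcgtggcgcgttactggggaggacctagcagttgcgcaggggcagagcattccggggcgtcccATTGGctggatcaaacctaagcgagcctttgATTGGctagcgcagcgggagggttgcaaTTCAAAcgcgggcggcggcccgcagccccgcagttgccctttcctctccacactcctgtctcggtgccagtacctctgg
Birc5: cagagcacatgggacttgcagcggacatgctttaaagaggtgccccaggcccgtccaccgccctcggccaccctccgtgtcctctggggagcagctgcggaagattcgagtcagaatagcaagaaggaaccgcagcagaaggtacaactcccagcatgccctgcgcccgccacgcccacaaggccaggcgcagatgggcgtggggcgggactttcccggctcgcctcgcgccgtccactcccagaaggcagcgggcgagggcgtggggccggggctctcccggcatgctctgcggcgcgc
Kif4: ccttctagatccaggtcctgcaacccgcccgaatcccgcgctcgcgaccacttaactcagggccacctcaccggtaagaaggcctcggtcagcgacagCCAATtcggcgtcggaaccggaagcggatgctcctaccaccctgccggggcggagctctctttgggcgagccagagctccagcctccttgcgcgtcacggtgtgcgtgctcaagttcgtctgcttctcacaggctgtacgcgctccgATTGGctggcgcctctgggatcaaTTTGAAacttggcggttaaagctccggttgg
Racgap1: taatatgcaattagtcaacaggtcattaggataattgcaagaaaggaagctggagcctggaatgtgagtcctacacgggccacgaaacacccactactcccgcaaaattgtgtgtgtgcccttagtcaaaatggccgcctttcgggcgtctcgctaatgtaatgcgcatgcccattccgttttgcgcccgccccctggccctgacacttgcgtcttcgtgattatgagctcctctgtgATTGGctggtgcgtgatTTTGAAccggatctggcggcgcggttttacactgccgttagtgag

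The Ube2c window held 6 matches to CCAAT and 1 to TTTGAA, Kif4 2 and 1, Racgap1 1 and 1, and Birc5 neither. Over the 46 windows found for 43 genes of the G2 and mitosis list, 76.1% held CCAAT, 76.1% TTTGAA and 67.4% both. Among all 32851 windows in the RefSeq table the shares were 37.4%, 17.9% and 6.95%, and over 37 windows of the S phase list they were 56.8%, 10.8% and 8.11%. These are letter matches in fixed windows and say nothing about binding in these tissues.

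DNA replication genes were less distinct. Of 40 S phase genes 28 were higher and 12 lower, with a median of 0.53, and 0.77 over the 29 members averaging 20 CPM or more, of which 21 were higher. Their summed level was 1780, 928, 1540, 1140 and 1820 CPM in hyperplasia 21, 22, 33, 44 and 46 and 594, 995 and 776 CPM in normal 18, 28 and 30. Lig1, the ligase that joins Okazaki fragments, had 36.6, 68.6, 88.0, 15.6 and 163 CPM in those hyperplasia regions and 12.3, 5.38 and 15.4 CPM in normal gland, separated by a narrow margin at region 44. Dut, which removes dUTP from the nucleotide pool, had 49.8 to 155 CPM in hyperplasia, against 0.807 to 30.6 CPM in normal gland, without overlap. Orc6, of the origin recognition complex, had 475 CPM in region 22 and 4.27 to 80.9 CPM in the others, against 1.35 to 11.9 CPM in normal gland.

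Regulators of entry into the cycle were mixed. Of 19 G1 cyclin, E2F and Myc genes 14 were higher and 5 lower, with a median of 1.06. Cyclin D1 (Ccnd1), the G1 cyclin that mammary alveolar growth depends on, had 179, 83.5, 470, 506 and 541 CPM in hyperplasia 21, 22, 33, 44 and 46 and 148, 41.2 and 143 CPM in normal 18, 28 and 30 (log2 difference 1.68, SE 0.66, edgeR adjusted p = 0.290). Regions 33, 44 and 46 stood well above normal gland, and 22 lay inside its range. Ccnd3, its close relative, was wholly lower at 11.5 to 40.1 CPM in hyperplasia against 45.6 to 74.1 CPM in normal gland. Myc had 2.44 to 60.0 CPM in hyperplasia, against 4.04 to 11.3 CPM in normal gland. Mycl, another Myc family member, had a count only in region 22 in hyperplasia (0.114 CPM), against 108 CPM in pool 28 and 0.690 and 0 CPM in normal 18 and 30, so its difference rested on 1 pool. Mxd1, which opposes Myc at shared sites, had 0 CPM in region 22 and 14.3 to 97.6 CPM in the other regions, against 0.410 to 3.80 CPM in normal gland.

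Inhibitors of the cycle gave no common direction. Of 19 inhibitor and p53 target genes 11 were higher and 8 lower, with a median of 0.24 that was -0.22 with DESeq2 size factors and -0.29 without region 22. Cdkn1a, which encodes p21, had 21.7, 123, 4.40, 51.2 and 0.0823 CPM in hyperplasia 21, 22, 33, 44 and 46 and 18.4, 0.269 and 2.05 CPM in normal 18, 28 and 30. Cdkn1b, which encodes p27, had 9.45 to 43.9 CPM in hyperplasia, against 7.59 to 12.9 CPM in normal gland, with region 22 alone inside. Mdm2, the ligase that removes p53, averaged 17.1 ± 14.5 CPM in hyperplasia, against 32.3 ± 5.92 CPM in normal gland (mean ± SD, n = 5 and 3).

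The genes through which middle T signals stood near the background. Of 32 genes of middle T effectors and the phosphatidylinositol 3-kinase pathway 23 were higher and 9 lower, with a median of 0.43, under the 0.53 of well-expressed genes, and 0.05 with DESeq2 size factors, where those genes had 0.11. Their sums were 2050 to 3390 CPM in hyperplasia, against 1600 to 2180 CPM in normal gland. Only Ywhaz, a 14-3-3 protein that binds phosphorylated targets, was wholly higher, at 247 to 406 CPM in hyperplasia against 74.5 to 196 CPM in normal gland. Ywhae averaged 401 ± 218 CPM in hyperplasia, against 203 ± 54.1 CPM in normal gland (mean ± SD, n = 5 and 3). Tsc1, a brake on mTOR, had 377 CPM in region 22 but 14.8 to 33.3 CPM in the other regions, against 12.9 to 24.5 CPM in normal gland.

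Growth factor receptors and ligands had no common direction. Of 16 EGF family genes 7 were higher and 9 lower, with a median of -0.38. Erbb2 averaged 53.4 ± 41.6 CPM in hyperplasia, against 64 ± 19.7 CPM in normal gland. Egfr averaged 13.3 ± 14.1 CPM in hyperplasia, against 18.8 ± 5.57 CPM in normal gland, and Erbb3 averaged 11.3 ± 17.7 CPM in hyperplasia, against 9.81 ± 7.21 CPM in normal gland (mean ± SD, n = 5 and 3). Adam17, the protease that sheds EGF ligands, averaged 36.9 ± 5.46 CPM in hyperplasia, against 64 ± 33.3 CPM in normal gland. Errfi1, a feedback inhibitor of EGF receptors, averaged 69.7 ± 52.6 CPM in hyperplasia, against 41.3 ± 9.59 CPM in normal gland. Of 23 genes of the FGF, IGF and HGF axis 9 were higher and 14 lower, with a median of -0.68. Fgfr1 had 59.2, 566, 112, 180 and 450 CPM in hyperplasia 21, 22, 33, 44 and 46 and 82.6 to 96.1 CPM in normal gland, only region 21 lying below the normal range. The ligand Igf1 was wholly lower, at 0 to 14.3 CPM in hyperplasia, against 15.9 to 83.9 CPM in normal gland. Pdgfa, a platelet-derived growth factor chain, had 0.247 to 12.1 CPM in hyperplasia, against 6.99 to 71.8 CPM in normal gland.

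Developmental pathways held single genes apart from their lists. Wnt and Notch genes were 15 higher and 11 lower of 26, with a median of 0.12 (-0.19 with DESeq2 size factors). Ctnnb1, which encodes beta-catenin, had 140 to 606 CPM in hyperplasia, against 102 to 165 CPM in normal gland, with region 33 inside the normal range. Hey1, a Notch target, reached 864 CPM in region 22 and 19.7 to 220 CPM in the others, against 50.6 to 80.4 CPM in normal gland. Wnt5b, a ligand of the beta-catenin-independent branch, was wholly lower, at 6.75 to 68.5 CPM against 96.2 to 222 CPM in normal gland. In the TGF-beta and Hippo list 16 of 28 genes were higher and 12 lower, with a median of 0.32 (-0.04 with DESeq2 size factors and -0.22 without region 22). Id2, an inhibitor of differentiation factors that alveolar growth depends on in mice, had 795, 692, 277, 606 and 974 CPM in hyperplasia 21, 22, 33, 44 and 46 and 321, 171 and 204 CPM in normal 18, 28 and 30 (log2 difference 1.53, SE 0.48, edgeR adjusted p = 0.282), only region 33 overlapping. Yap1, the effector that Hippo signalling restrains, had 45.4 to 164 CPM in hyperplasia, against 21.5 to 38 CPM in normal gland, without overlap. Its inhibitor Lats1 had 444 CPM in region 46 and 1.47 to 59.8 CPM in the other regions, against 4.10 to 28.8 CPM in normal gland. Inhba, a subunit of activin, was at most 1.25 CPM in hyperplasia, and in normal gland at 112 CPM in pool 28 but 0.604 and 2.46 CPM in normal 18 and 30. Apoptosis regulators were 12 higher and 8 lower of 20 (median 0.24, and -0.27 without region 22). Among them Bcl2l11, which encodes the death-promoting Bim, had 460 CPM in region 22 and 4.61 to 142 CPM in the others, against 31.6 to 36 CPM in normal gland. The survival gene Mcl1 had 466 CPM in region 22 and 129 to 187 CPM elsewhere in hyperplasia, against 43.9 to 148 CPM in normal gland. Bcl2l1, which encodes Bcl-xL, averaged 55.3 ± 36.1 CPM in hyperplasia, against 97.6 ± 30.2 CPM in normal gland.

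Genes of protein synthesis were higher nearly throughout, those of the cytosolic ribosome by about as much as other well-expressed genes. By the fitted difference all 46 cytosolic ribosomal protein genes were higher in hyperplasia, with a median of 0.49, just below 0.53. With DESeq2 size factors the median was 0.09, where well-expressed genes had 0.11. The sum of the list was 36000, 51700, 21200, 32800 and 37800 CPM in hyperplasia 21, 22, 33, 44 and 46 and 31600, 18300 and 25100 CPM in normal 18, 28 and 30. Region 33 was thus inside the normal range and region 44 just above it. Rpl23 averaged 1620 ± 814 CPM in hyperplasia, against 862 ± 336 CPM in normal gland. Rpl32 averaged 2280 ± 1350 CPM in hyperplasia, against 1240 ± 415 CPM in normal gland, and Rpl5, which can restrain Mdm2, averaged 858 ± 362 CPM in hyperplasia, against 452 ± 263 CPM in normal gland (mean ± SD, n = 5 and 3). Rpl4 was the single ribosomal protein gene without overlap, at 796 to 1470 CPM in hyperplasia, against 525 to 764 CPM in normal gland. Ribosome biogenesis genes were 20 higher and 5 lower of 25 (median 0.48, and 0.89 over the 21 members averaging 20 CPM or more), among them Npm1, nucleophosmin, at 448 ± 263 CPM in hyperplasia, against 189 ± 82.3 CPM in normal gland. Nop10, of the pseudouridine-forming particles, averaged 192 ± 88.5 CPM in hyperplasia, against 68.7 ± 11.3 CPM in normal gland. Nop58, of the methylating particles, had 90.1 to 154 CPM in hyperplasia, against 25.3 to 86.8 CPM in normal gland, without overlap.

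Translation factors lay somewhat above the background, with 21 of 22 higher and a median of 0.87. Eif4e, the cap-binding protein, had 78.4, 1120, 59.7, 34.7 and 33.2 CPM in hyperplasia 21, 22, 33, 44 and 46 and 37.1, 21 and 11.3 CPM in normal 18, 28 and 30. Region 22 was far above all other libraries, and regions 44 and 46 lay below normal 18. Eif5a had 282 to 560 CPM in hyperplasia, against 135 to 193 CPM in normal gland, without overlap. Eif1, which helps select the start codon, had 1150 CPM in region 22, 199 to 378 CPM in the other regions and 122 to 312 CPM in normal gland. Of 23 genes of tRNA charging and amino acid transport 20 were higher and 3 lower (median 0.74). Asns, asparagine synthetase, had 20.9, 78.8, 59.3, 5.25 and 217 CPM in hyperplasia 21, 22, 33, 44 and 46 and 0.690, 7.80 and 15.0 CPM in normal gland, the border region 44 being the only overlap. Iars, isoleucyl-tRNA synthetase, had 53.8 to 465 CPM in hyperplasia, against 24 to 46.8 CPM in normal gland.

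Genes of oxidative phosphorylation were among the groups more uniform in direction from gene to gene, those of the mitochondrial ribosome and import less so. Of 31 nuclear genes of oxidative phosphorylation 29 were higher and 2 lower, with a median of 0.89. Of these, 8 had an unadjusted edgeR p under 0.05, all higher, and 1 was wholly higher. Among all genes averaging 20 CPM or more, 7.31% reached that p as higher and 3.33% were wholly higher. The sum of the list was 10000, 12900, 4700, 7150 and 9170 CPM in hyperplasia 21, 22, 33, 44 and 46 and 6140, 3420 and 4900 CPM in normal 18, 28 and 30. Region 33 was thus inside the normal range. Cox6b1, a subunit of cytochrome c oxidase, averaged 668 ± 458 CPM in hyperplasia, against 248 ± 128 CPM in normal gland. The complex I subunit Ndufb8 averaged 316 ± 213 CPM in hyperplasia, against 112 ± 25.8 CPM in normal gland, and its partner Ndufa8 215 ± 315 CPM in hyperplasia, against 41.4 ± 8.79 CPM in normal gland (mean ± SD, n = 5 and 3). Region 22 gave the highest value of all 3 and region 33 the lowest. For Ndufa8 (26.2 CPM) and Ndufb8 (55.9 CPM) region 33 lay below every normal library. Atp5a1, the alpha subunit of ATP synthase, had 431 to 1150 CPM in hyperplasia, against 259 to 355 CPM in normal gland. In the list of mitochondrial ribosome and import genes 20 of 26 were higher (76.9%) and 6 lower (median 0.74), where 71.4% of well-expressed genes were higher. Of the list, 4 were wholly higher. These were Mrps18b of the small subunit, Mrpl12 and Mrpl3 of the large subunit and Timm44 of the import motor. Mrps18b had 18.4 to 69.6 CPM in hyperplasia, against 3.28 to 16.8 CPM in normal gland, and Mrpl12 had 95.6 to 234 CPM in hyperplasia, against 35.0 to 95.2 CPM in normal gland. Timm44 had 50.1 to 151 CPM in hyperplasia, against 29.4 to 41.4 CPM in normal gland. Hspe1, the mitochondrial co-chaperonin, had 89.8 to 309 CPM in hyperplasia, against 32 to 94.8 CPM in normal gland. Its partner Hspd1 had 17.4 to 282 CPM in hyperplasia, against 16.2 to 37.6 CPM in normal gland, region 46 being the low value.

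Metabolic groups followed the same shift. Glycolysis genes were 15 higher and 5 lower of 20 (median 0.63). Pgk1, phosphoglycerate kinase, was wholly higher at 69.7 to 109 CPM in hyperplasia against 35.5 to 50 CPM in normal gland. Ldha, lactate dehydrogenase, averaged 1050 ± 375 CPM in hyperplasia, against 540 ± 102 CPM in normal gland. Pfkl, liver phosphofructokinase, averaged 140 ± 55.4 CPM in hyperplasia, against 54.2 ± 24.5 CPM in normal gland. The lactate transporter Slc16a1 was wholly lower, at 0 to 15.2 CPM in hyperplasia, against 26.9 to 58.3 CPM in normal gland. Fatty acid synthesis genes were 16 higher and 3 lower of 19 (median 0.70). Scd2, a desaturase, had 450, 210, 108, 379 and 769 CPM in hyperplasia 21, 22, 33, 44 and 46 and 163, 67.5 and 21.5 CPM in normal 18, 28 and 30, overlapping at region 33. Acly, which makes cytosolic acetyl-CoA, averaged 212 ± 119 CPM in hyperplasia, against 84.5 ± 32.9 CPM in normal gland, and Thrsp, a factor of milk fat synthesis, 321 ± 195 CPM in hyperplasia, against 99.3 ± 45.8 CPM in normal gland. Dgat1, which makes triglycerides, was wholly higher, at 36.6 to 70.9 CPM against 11.6 to 22.2 CPM in normal gland. Cholesterol synthesis genes were 16 higher and 6 lower of 22 (median 0.63). Mvk, mevalonate kinase, had 0.906 to 69.7 CPM in hyperplasia, against 0.269 to 0.821 CPM in normal gland. Fdps, farnesyl diphosphate synthase, had 37.0 to 169 CPM in hyperplasia, against 19.7 to 30.7 CPM in normal gland, and Ebp, a sterol isomerase, had 9.40 to 150 CPM in hyperplasia, against 8.61 to 30.7 CPM in normal gland. Of these Mvk and Fdps were without overlap.

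Nucleotide synthesis genes were 14 higher and 6 lower of 20 (median 0.65), with Nme1, a nucleoside diphosphate kinase, at 192 to 700 CPM in hyperplasia, against 126 to 198 CPM in normal gland. Impdh1, which makes guanine nucleotides, had 322 CPM in region 22 and 2.72 to 79.0 CPM in the others, against 10.5 to 19.9 CPM in normal gland. Proteasome genes were 22 higher and 3 lower of 25 (median 0.73). The core subunit Psma1 averaged 259 ± 187 CPM in hyperplasia, against 55.9 ± 41.7 CPM in normal gland, and Psma2 averaged 173 ± 148 CPM in hyperplasia, against 40.5 ± 26.9 CPM in normal gland. Psmd2 of the regulatory particle averaged 51.8 ± 30.1 CPM in hyperplasia, against 123 ± 77.2 CPM in normal gland (mean ± SD, n = 5 and 3).

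Immediate early genes were led by region 22. Among hyperplasia regions it also had the highest sums of heat shock (3990 CPM), hypoxia (1150 CPM) and oxidative stress genes (5030 CPM). Region 46 had the highest sums of interferon-responsive genes (2800 CPM) and of the list holding Atf4 (6370 CPM). Immediate early genes had the highest median of all 48 lists, 1.93, with 18 of 20 higher, and their sum was 7520 CPM in region 22 but 582 to 1080 CPM in the other hyperplasia regions, against 420 to 813 CPM in normal gland. Fos had 2180 CPM in region 22 and 1.15 to 85.1 CPM in the others, with 46 the lowest, against 25.8 to 31.6 CPM in normal gland. Ier2 was the single member without overlap, at 103 to 436 CPM in hyperplasia, against 41.6 to 85.8 CPM in normal gland, while Ier3 ran from 13.7 CPM in region 44 to 903 CPM in region 22. Without region 22 the median of the list was 0.20, where well-expressed genes had 0.29, and when detected genes entered the fit as a covariate it was 0.57. Atf4, the factor that amino acid and secretory stress induce, had 146, 689, 150, 207 and 542 CPM in hyperplasia 21, 22, 33, 44 and 46 and 76.8, 62.9 and 83.9 CPM in normal 18, 28 and 30 (log2 difference 2.22, SE 0.64, edgeR adjusted p = 0.282), without overlap. Its list, of 22 unfolded protein and amino acid stress genes, was nonetheless near the background, with 17 higher and a median of 0.44, and its sum was highest in region 46 (6370 CPM). The endoplasmic reticulum chaperone Hspa5 averaged 356 ± 271 CPM in hyperplasia, against 158 ± 79.4 CPM in normal gland.

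Heat shock genes were 11 higher and 3 lower of 14 (median 0.91), and Hsp90aa1 was wholly higher at 391 to 581 CPM in hyperplasia against 136 to 349 CPM in normal gland. Hspa8 averaged 360 ± 132 CPM in hyperplasia, against 185 ± 58.9 CPM in normal gland (mean ± SD, n = 5 and 3). Hypoxia genes showed no common direction, with 12 higher and 8 lower of 20 and a median of 0.10 (-0.26 with DESeq2 size factors). Egln3, an oxygen-sensing hydroxylase, had 1.71 CPM in region 22 and 26.8 to 124 CPM in the other regions, against 3.49 to 15.2 CPM in normal gland. Stc1, a secreted glycoprotein, had 502 CPM in region 22 and 0 to 75 CPM in the others, against 0 to 16 CPM in normal gland. Oxidative stress genes were 13 higher and 7 lower of 20 (median 0.48), with the peroxidase Prdx1 at 678 ± 345 CPM in hyperplasia, against 293 ± 163 CPM in normal gland. Prdx2 averaged 413 ± 194 CPM in hyperplasia, against 222 ± 33.5 CPM in normal gland, and the pentose pathway enzyme Tkt averaged 242 ± 248 CPM in hyperplasia, against 84.6 ± 35.5 CPM in normal gland.

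Interferon-responsive genes were the stress group that stood lower, apart from region 46. Of 30 genes 13 were higher and 17 lower, with a median of -0.29, and 4 were wholly lower. Over all genes 3.77% were wholly lower, and over well-expressed genes 1.36%. Isg15, a ubiquitin-like protein, had 0 to 0.412 CPM in hyperplasia, against 4.51 to 13.5 CPM in normal gland. Ifit3 had no count in any hyperplasia library, against 8.02, 1.08 and 31.2 CPM in normal 18, 28 and 30, which is at least 202-fold lower if 3 counts over the group are taken as the floor. Irf7, the factor that amplifies the response, had 20.4 to 40.3 CPM in hyperplasia, against 68.1 to 143 CPM in normal gland, and Mx2 had 0 to 9.40 CPM in hyperplasia, against 15.4 to 139 CPM in normal gland. Igtp, an interferon-gamma-induced GTPase, was 555 CPM in region 46 but 1.05 to 10.2 CPM in the other 4 regions, against 17.1 to 27.2 CPM in normal gland. The list's sum was 2800 CPM in region 46, 341 to 457 CPM in the others and 739 to 1320 CPM in normal gland. Region 46 was thus above all normal libraries and the other 4 below all of them.

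**Figure D4:**
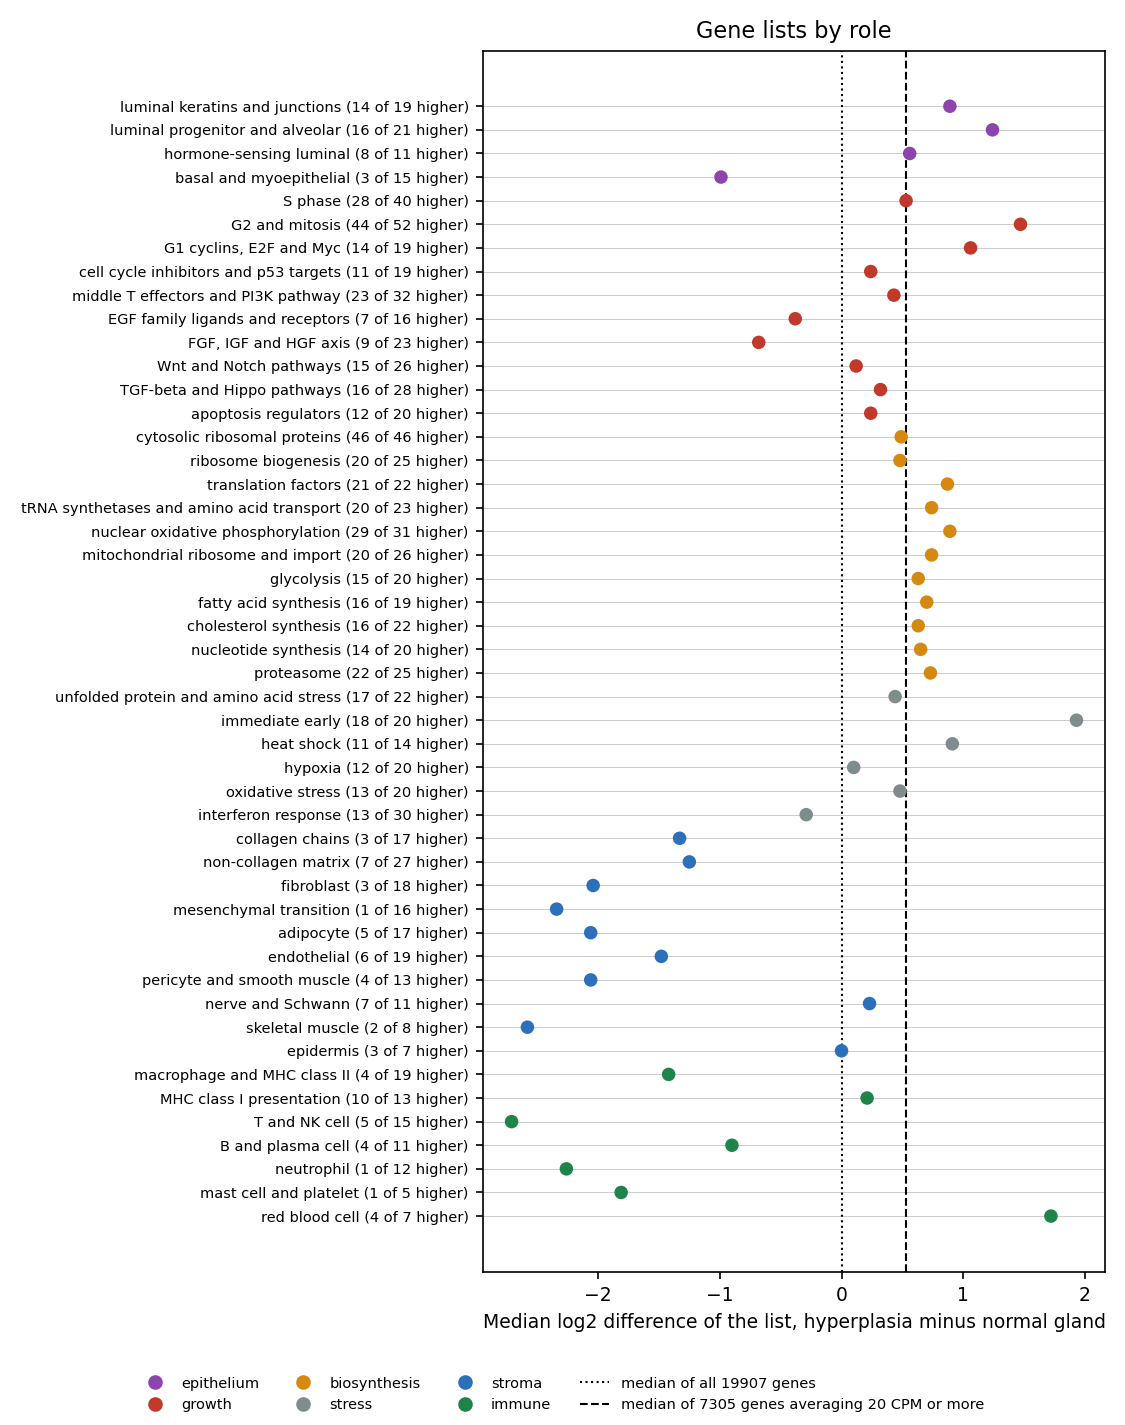
Median log2 difference, hyperplasia minus normal gland, of each of 48 gene lists, coloured by role, with the number of members higher. The dotted line is the median of all 19907 genes (0) and the dashed line that of 7305 genes averaging 20 CPM or more (0.53), near which most biosynthesis lists lie, while G2 and mitosis (1.47) and immediate early genes (1.93) lie to its right and most stroma and immune lists to the left of 0.

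Of the 48 lists, 30 had a median above that of all genes and 17 above that of the well-expressed genes. The lists were chosen with earlier results of these data known, so their directions are descriptions.

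The genes of smallest p that were lower in hyperplasia were mostly ones whose normal level came from a single library. Zfp872, a zinc finger gene (gene 619310, chr9:22188166-22202123), had no count in any hyperplasia library, against 2.16, 125 and 15.6 CPM in normal 18, 28 and 30, at least 714-fold lower on the same floor of 3 counts. The olfactory receptor gene Olfr787 (gene 258069, chr10:129461940-129463616) was likewise without a count in hyperplasia, against 3.97, 122 and 6.98 CPM in the same normal libraries, at least 669-fold lower. The Schlafen genes Slfn9 and Slfn10-ps had 0.114 to 1.23 and 0 to 0.889 CPM in hyperplasia, against 7.68, 187 and 11.5 CPM and 8.97, 230 and 35.1 CPM in normal 18, 28 and 30. They are neighbouring, similar copies on chromosome 11, so the split of reads between them is uncertain. All 4 of these genes peaked in pool 28, the library with the highest sensory receptor sum and the fewest counts. Of the 750 wholly lower genes, 313 were highest in pool 28, 273 in pool 30 and 164 in normal 18, and 137 had no hyperplasia count at all. Among the 883 sensory receptor genes tested, 38 were wholly lower (4.30%) and 0 wholly higher, near the 5.17% wholly lower among all genes averaging under 20 CPM.

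The leading lower genes Msn, Mif4gd, Ly6c2 and Cfd were above every hyperplasia region in each normal library, though the normal level of Ly6c2 came mostly from normal 18. Msn, moesin, which links actin to the membrane and is a marker of basal and stromal cells (gene 17698, chrX:96096045-96168553), had 19.9, 3.76, 8.38, 12.0 and 8.32 CPM in hyperplasia 21, 22, 33, 44 and 46, against 67.6, 107 and 53.8 CPM in normal 18, 28 and 30 (log2 difference -2.86, SE 0.81, edgeR adjusted p = 0.282). Mif4gd, a translation regulator of histone mRNA, had 1.48 to 5.33 CPM in hyperplasia, against 38.3, 65.9 and 11.1 CPM in normal gland. Ly6c2, a surface protein of monocytes and endothelium, had 0 to 0.800 CPM in hyperplasia, against 214, 13.5 and 16.6 CPM in normal gland. Cfd, adipsin of fat cells, had 9.42 CPM in region 21 and no count in the other 4 regions, against 429, 36.6 and 202 CPM in normal 18, 28 and 30. Ly6c2 and Cfd peaked in normal 18, the only normal library of a single region, which lay in a tumour core. The places gathered in the pools are not given.

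Stromal genes as a group stood lower in hyperplasia. Among all genes averaging under 20 CPM, 61.4% were lower and the median was -0.82. Over list members averaging 20 CPM or more, the median was -0.66 for 11 collagen chains and -1.21 for 14 other matrix genes. It was -1.65 for 4 mesenchymal transition genes and -0.03 for 3 fibroblast genes. In these bulk libraries fewer cells of a type and less RNA per cell cannot be told apart. Of 17 collagen chains 14 were lower and 3 higher (median -1.33), and their sum was 243, 2010, 338, 1480 and 455 CPM in hyperplasia 21, 22, 33, 44 and 46 and 3940, 1100 and 2330 CPM in normal 18, 28 and 30. Regions 22 and 44 thus held as much collagen RNA as pool 28. Col3a1 had 16.6, 63.3, 35.4, 118 and 54.8 CPM in hyperplasia, against 705, 110 and 369 CPM in normal gland (log2 difference -2.77, SE 0.98, edgeR adjusted p = 0.282). The minor fibrillar chains Col5a1 and Col5a2 did not overlap, with at most 5.37 and 5.87 CPM in hyperplasia and at least 15.1 and 20.2 CPM in normal gland. Neither did Col6a2 (2.50 to 27.3 CPM in hyperplasia, against 33.9 to 143 CPM in normal gland) or Col12a1 (0.341 to 36.4 CPM in hyperplasia, against 41.4 to 116 CPM in normal gland). Col1a1 had 251 CPM in region 44 and 29.2 to 67.2 CPM in the other regions, against 163 to 816 CPM in normal gland.

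Other matrix genes went the same way, with 20 of 27 lower and 7 higher (median -1.25). Bgn, a proteoglycan of collagen fibrils, had 14.4 to 94.6 CPM in hyperplasia, against 219 to 476 CPM in normal gland. Fn1, fibronectin, had 5.93 to 19.3 CPM in hyperplasia, against 21.8 to 154 CPM in normal gland, and Sparc, a collagen-binding glycoprotein, 36.5 to 588 CPM in hyperplasia, against 406 to 947 CPM in normal gland, region 22 being the high value. Lamc1, a laminin chain of the basement membrane, had 8.20 to 13.2 CPM in hyperplasia, against 28.2 to 35.4 CPM in normal gland, narrow in both groups and without overlap. Dpt, dermatopontin, had no hyperplasia count, against 6.99, 19.4 and 4.92 CPM in normal 18, 28 and 30, at least 157-fold lower. Loxl1, which cross-links elastin, had 0 to 4.53 CPM in hyperplasia, against 15.3 to 103 CPM in normal gland. Fibroblast genes were 15 lower and 3 higher of 18 (median -2.04). Most were weak: only 3 averaged 20 CPM or more, of which 1 was higher, with a median of -0.03. Serping1, a complement inhibitor, had 0 to 75.9 CPM in hyperplasia, against 60.3 to 179 CPM in normal gland. Thy1, a fibroblast surface protein, had 0 to 4.18 CPM in hyperplasia, against 7.80 to 48.2 CPM in normal gland. The fibroblast sum was 89.5 to 317 CPM in hyperplasia, against 424 to 560 CPM in normal gland, without overlap. That of 16 mesenchymal transition genes (15 lower, median -2.34) was 59.3 to 740 CPM in hyperplasia, against 1030 to 1830 CPM in normal gland. Vim, vimentin, had 108 CPM in the border region 44 and 4.36 to 28.8 CPM in the other regions, against 55.8 to 124 CPM in normal gland. Cdh2, N-cadherin, had 0 to 6.85 CPM in hyperplasia, against 9.66 to 51.7 CPM in normal gland. Tgfbi, a matrix protein that TGF-beta induces, had 0 to 6.67 CPM in hyperplasia, against 14.4 to 95.7 CPM in normal gland.

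Fat, vessel and muscle lists were mostly lower and made mostly of genes averaging under 20 CPM, of which 61.4% were lower (median -0.82), whereas nerve and epidermis genes were not mostly lower. Adipocyte genes were 12 lower and 5 higher of 17 (median -2.06), with sums of 25 to 435 CPM in hyperplasia, against 150 to 995 CPM in normal gland, pool 28 being the low one. Retn, resistin, had no hyperplasia count and 5.18, 0 and 64.4 CPM in normal 18, 28 and 30, at least 349-fold lower by the group means. Car3, a carbonic anhydrase abundant in fat, had 0 to 11.1 CPM in hyperplasia, against 28.5 to 181 CPM in normal gland. Pnpla2, of the same list, ran the other way, though with overlap (log2 difference 1.59, SE 0.78, edgeR adjusted p = 0.397). It had 318 CPM in region 22 and 11.5 to 70.2 CPM in the other hyperplasia regions, against 27.3 to 36.6 CPM in normal gland. Endothelial genes were 13 lower and 6 higher of 19 (median -1.48, sums 45.4 to 174 CPM in hyperplasia, against 166 to 223 CPM in normal gland), and without both pooled normal libraries the median of the endothelial list was -0.31. Among them was Emcn, endomucin, at 0 to 7.63 CPM in hyperplasia, against 9.68 to 24.6 CPM in normal gland. Pericyte and smooth muscle genes were 9 lower and 4 higher of 13 (sums 65.8 to 701 CPM in hyperplasia, against 185 to 312 CPM in normal gland), and skeletal muscle genes 6 lower and 2 higher of 8 (6.84 to 43.0 CPM in hyperplasia, against 26.4 to 63.0 CPM in normal gland). Nerve and Schwann genes were 4 lower and 7 higher of 11 (median 0.23, and -0.19 with DESeq2 size factors, sums 341 to 700 CPM in hyperplasia, against 243 to 520 CPM in normal gland), and epidermis genes 3 lower and 3 higher of 7 (0.114 to 120 CPM in hyperplasia, against 17.0 to 104 CPM in normal gland). The part of these other cell types in the differences above was not tested.

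Immune lists other than MHC class I presentation and red blood cells had more members lower than higher, against 61.4% lower and a median of -0.82 among all genes averaging under 20 CPM. T and NK cell genes were 10 lower and 5 higher of 15, with a median of -2.71, and summed to 1.25 to 28.3 CPM in hyperplasia against 82.3 to 86.4 CPM in normal gland. Cd8a, of cytotoxic T cells, had at most 0.209 CPM in hyperplasia, against 16.5, 23.1 and 0.410 CPM in normal gland, and Cd2 had no count in hyperplasia. Ptprc, the common leukocyte antigen CD45, had 12.6, 16.8, 0.209, 10.4 and 20.7 CPM in hyperplasia 21, 22, 33, 44 and 46 and 78.7, 48.4 and 61.4 CPM in normal 18, 28 and 30 (log2 difference -2.36, SE 1.35, edgeR adjusted p = 0.472). Every hyperplasia region was below every normal library. Of 19 macrophage and MHC class II genes 15 were lower and 4 higher (median -1.42), with sums of 1040, 2460, 334, 478 and 482 CPM in those hyperplasia regions and 5430, 765 and 1090 CPM in those normal libraries, so regions 21 and 22 overlapped the pools. C1qa, a complement subunit made by macrophages, had 1.56 to 60.3 CPM in hyperplasia, against 21.3 to 179 CPM in normal gland, and the mannose receptor Mrc1 had 0 to 7.33 CPM in hyperplasia, against 8.54 to 28.5 CPM in normal gland.

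B and plasma cell genes were 7 lower and 4 higher of 11, with a median of -0.90 close to that of weak genes (sums 514 to 2550 CPM in hyperplasia, against 832 to 2280 CPM in normal gland). Jchain, the joining chain of secreted antibodies, was at 21.7 CPM or below in hyperplasia, against 893, 223 and 21.5 CPM in normal 18, 28 and 30. Neutrophil genes were 10 lower and 1 higher of 12 (sums 1060 to 6640 CPM in hyperplasia, against 3020 to 7480 CPM in normal gland). Their sums were made mostly of Lcn2, which mammary epithelium also makes, at 3750 ± 2130 CPM in hyperplasia, against 4510 ± 2240 CPM in normal gland (mean ± SD, n = 5 and 3), while S100a8 had 2.72 to 93.3 CPM in hyperplasia, against 74.7 to 389 CPM in normal gland. The defining markers Cd79b and Ms4a1 of B cells and Ly6g of neutrophils had no count in hyperplasia and were near 0 in normal gland too, at 4.23, 0.269 and 0 CPM for Cd79b, 0, 0.269 and 2.67 CPM for Ms4a1 and 0, 0 and 2.67 CPM for Ly6g in normal 18, 28 and 30. Mast cell and platelet genes were 4 lower and 1 higher of 5 (sums 0 to 22.9 CPM in hyperplasia, against 10.8 to 71.8 CPM in normal gland). MHC class I presentation genes were 10 higher and 3 lower of 13 (median 0.21, and -0.26 with DESeq2 size factors). Their sum was 1360, 3380, 1550, 1320 and 9720 CPM in hyperplasia 21, 22, 33, 44 and 46 and 3100, 2840 and 2680 CPM in normal 18, 28 and 30. Regions 21, 33 and 44 were thus below all normal libraries, and 22 and 46 above them. H2-K1 had 3150 CPM in region 46 and 323 to 1170 CPM in the other regions, against 632 to 836 CPM in normal gland. Red blood cell genes were 4 higher and 3 lower of 7 (median 1.72), which rested on regions 22 and 33: their sum was 0.356, 792, 1740, 1.59 and 106 CPM in hyperplasia 21, 22, 33, 44 and 46 and 75, 40.9 and 393 CPM in normal 18, 28 and 30. Hba-a1, an alpha-globin whose reads may be shared with its twin copy, had 0.0889, 359, 606, 0.122 and 33.4 CPM in those hyperplasia regions and 37.2, 15.6 and 128 CPM in those normal libraries. The part of blood and immune cells in the comparison was not tested.

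The 5 hyperplasia regions differed among themselves by as much as they differed from normal gland. Of the 269 wholly higher genes 130 were highest in region 22 and 74 in region 46, against 20 to 24 in each of the others. Region 22, from a tumour core, combined the fewest detected genes with the highest immediate early, ribosomal protein (51700 CPM), translation factor (13100 CPM) and oxidative phosphorylation (12900 CPM) sums and the lowest G2 and mitosis sum (1110 CPM). Region 46, not surrounded by tumour, had the highest G2 and mitosis sum (4270 CPM), the highest alveolar sum (45200 CPM, against 10400 to 33000 CPM in the other hyperplasia regions and 7670 to 15400 CPM in normal gland) and the highest interferon and MHC class I sums. The border region 44 was the hyperplasia library with the most Krt14, Esr1, Vim and Col1a1. With 1 region each at the border and outside a tumour, position and region cannot be told apart.

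In the later stages the leading genes mostly kept the side of normal gland on which hyperplasia stood, although all these comparisons share the same 3 normal libraries. The median of Cd24a was 164 CPM in normal gland, 576 CPM in hyperplasia, 485 CPM in 8 adenomas, 388 CPM in 9 carcinomas and 342 CPM in 7 lung metastases, and 8, 9 and 6 of those later libraries exceeded every normal library. Ube2c had medians of 13.2, 172, 220, 116 and 142 CPM in the same order, and 8 of 8, 8 of 9 and 7 of 7 later libraries exceeded normal gland. Birc5 had medians of 18.8, 119, 50.4, 128 and 74.3 CPM, with 7, 8 and 7 later libraries above and 1 adenoma and 1 carcinoma below the whole normal range. By these medians Ube2c in hyperplasia stood below adenoma alone and Birc5 below carcinoma alone.

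Over the same series of stages Lalba had medians of 807, 3470, 3940, 1920 and 1910 CPM, Plet1 252, 1100, 816, 844 and 614 CPM and Atf4 76.8, 207, 147, 172 and 186 CPM. Among the lower genes, Cfd had a median of 0 in hyperplasia and in every later stage against 202 CPM in normal gland, and all 8 adenomas, 9 carcinomas and 7 metastases were below all normal libraries, as they were for Ly6c2 and Olfr787. Col3a1 had medians of 369, 54.8, 20.3, 28.2 and 19.2 CPM. Mif4gd had medians of 38.3, 3.53, 23.7, 46.6 and 37.4 CPM over these stages, with 2 of 8 adenomas, 0 of 9 carcinomas and 2 of 7 metastases below all normal libraries. Msn had medians of 67.6, 8.38, 34.2, 24.8 and 67.0 CPM, with 5 adenomas, 7 carcinomas and 3 metastases below all normal libraries, so that it stayed low in adenoma and carcinoma by its median and stood at the normal median in metastases. These 2 genes were lower in hyperplasia than in each later stage by their medians, a difference that was not tested.

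**Figure D5:**
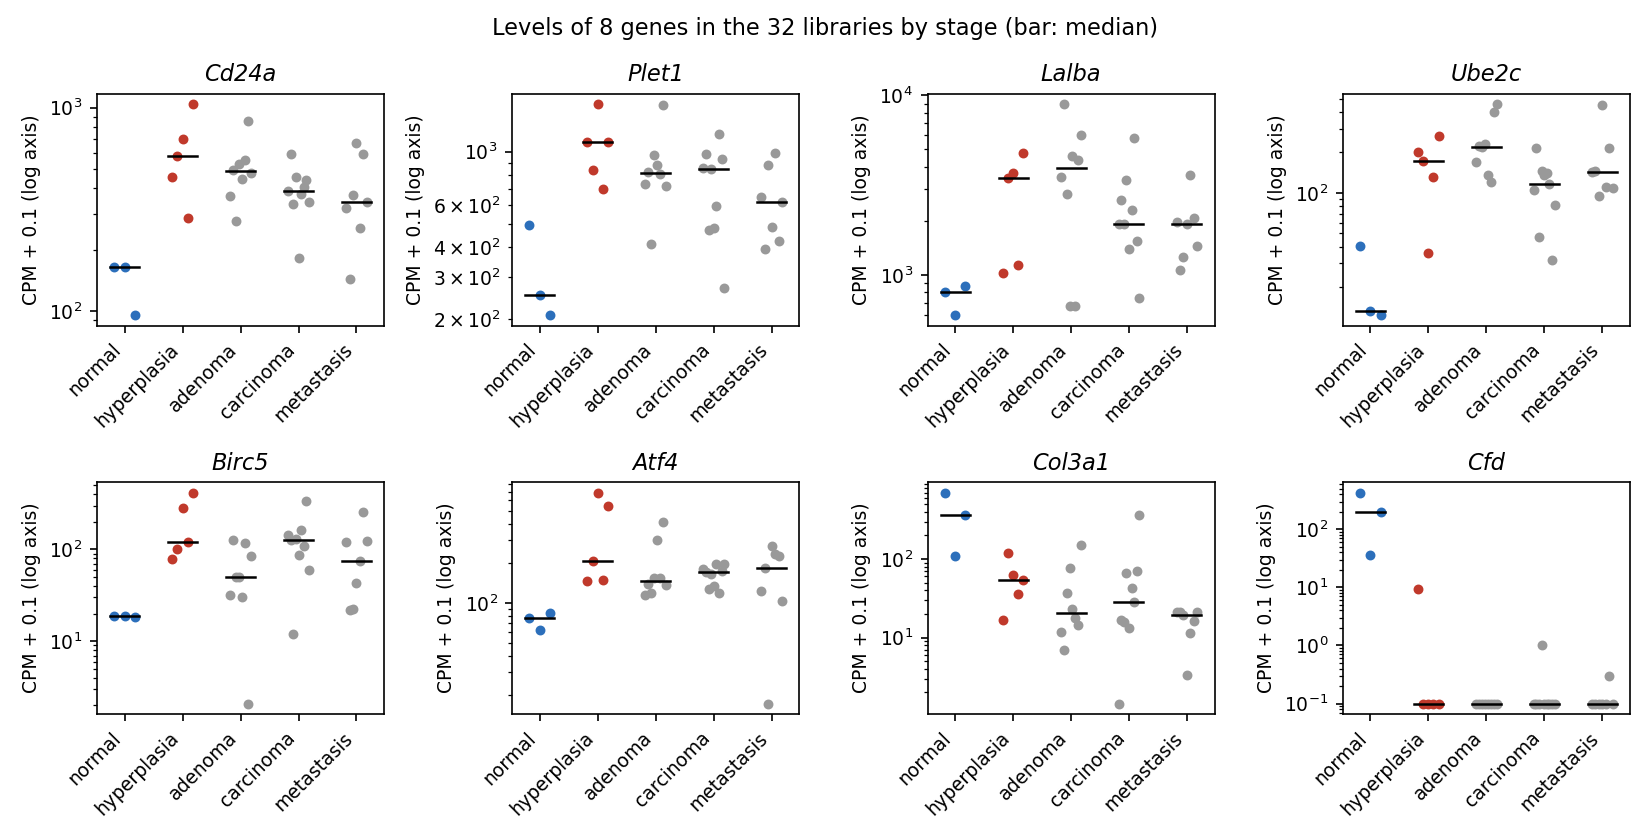
CPM + 0.1 (log axis) of 8 genes in all 32 libraries from normal gland (3) through hyperplasia (5), adenoma (8) and carcinoma (9) to metastasis (7), with 1 point per library and a bar at the median. Cd24a, Plet1, Lalba, Ube2c, Birc5 and Atf4 lie lowest in normal gland by their medians, while Col3a1 and Cfd lie highest there.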

How the data were processed

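RNA of 32 laser-captured regions was measured, of which 5 hyperplasia and 3 normal gland libraries were compared. The table deposited by the authors holds raw, unnormalized counts as whole numbers for 24454 gene IDs. The submitters' processing notes name the aligner STAR and the build mm10. Counting details (program, annotation, strand, multiple alignments) were not given in the sources used here, so copies, overlapping genes and antisense partners may share counts. Reads carry no molecular identifier, so floors cover counting error only. Symbols and positions came from RefSeq on GRCm38.p6 (24374 IDs matched, 80 not).

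After filterByExpr by stage (19907 genes kept) and TMM scaling, the quasi-likelihood model of edgeR 4.0.16 (R 4.3.3) was fitted to all 32 libraries with stage as its term, so that the 5 stages share 1 estimate of the spread (common dispersion 2.64). The contrast was hyperplasia minus normal gland, two-sided, with 0.05 as the threshold on the Benjamini-Hochberg adjusted p. The SE of a log2 difference is its size divided by the square root of the F statistic. The limma 3.58.1 and DESeq2 1.42.0 packages served as alternatives. The pipeline was tested on simulated data. CPM uses TMM effective library sizes. Depth was 6575885 to 15226553 counts in hyperplasia and 3002492 to 9646523 in normal gland.

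The 48 gene lists (1013 entries, of which 981 were tested) and the libraries were chosen with earlier results of these data known. Lists are described by counts and medians, without a list test. Named genes were the 10 of smallest p each way that averaged 20 CPM or more and had 10 counts in 75% of libraries in whichever group was higher, 3 members of smallest p per list, and a fixed set of keratin, milk, receptor and cycle genes. Members named because their libraries did not overlap, or as markers without a count, were chosen after their values were seen, as were the background of genes averaging 20 CPM or more and the sensory receptor measure. The values of 2 genes that the rule selected, and of list members left unnamed, are not reported here. No label used here names a sequencing batch. Alternatives covered scaling, filter, tool, covariate, libraries in the fit, pools, position and each library left out.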

Additional observations from a re-analysis of the deposited data

Results flagged for a closer look

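In each group of 5 hyperplasia libraries, a library was singled out where its gap to the nearest other library exceeded the share of the group's range that Dixon's test allows (0.71). This was done for 165 named genes on the log2(CPM + 1) scale and for the library measures, and chance singles out about 1 in 20 groups. The 3 normal libraries were too few to examine. This singled out 12 genes and 1 library measure, and 8 of the genes were singled out for hyperplasia 22, the library with the fewest detected genes.

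Hyperplasia 22 stood above the other 4 regions for Tsc1 (377 CPM, against 14.8 to 33.3 CPM), Eif4e (1120 CPM, against 33.2 to 78.4 CPM), Mcl1 (466 CPM, against 129 to 187 CPM) and Atp5a1 (1150 CPM, against 431 to 568 CPM), and by a trace for Inhba (1.25 CPM, against 0 to 0.0889 CPM) and Mycl (0.114 CPM, against 0). It stood below them for Tpx2 (0 CPM, against 21.4 to 66.8 CPM) and Prlr (4.44 CPM, against 94.0 to 222 CPM). Csn2 had 7850 CPM in hyperplasia 46, the region not surrounded by tumour, against 0 to 3.02 CPM in the other 4. Ptprc had 0.209 CPM in hyperplasia 33, against 10.4 to 20.8 CPM in the other 4. Cfd (9.43 CPM) and Cnn1 (0.0889 CPM) had a count in hyperplasia 21 alone. The summed level of sensory receptor genes was 5980 CPM in hyperplasia 33, against 886 to 1590 CPM in the other 4.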

How the results depend on the processing

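The count of genes that passed in the edgeR quasi-likelihood fit was 0 in both directions for each of the 8 libraries left out in turn and for the alternatives of scaling, filter, covariate, pools and position. The exception was the fit on only the 8 libraries, in which 1 gene passed as lower, whose values are not reported here. By its Wald test DESeq2 gave 138 higher and 345 lower calls, and limma voom gave 0 higher and 105 lower. The tools thus differed in how many genes they called, and the cause was not tested. Depth limits the genes without a count in hyperplasia to the bounds given with them.

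Genes at an unadjusted p under 0.05, 732 higher and 1740 lower, became 386 higher with DESeq2 size factors, 2634 lower without a filter on low counts, 57 higher and 818 lower without both pooled normal libraries, 69 higher and 437 lower among tumour core regions, 297 higher and 474 lower with only the 8 libraries, 993 lower with the number of detected genes as covariate, and 264 higher by limma voom. Leaving out 1 library each gave 286 (without normal 28) to 792 higher, with 351 without normal 30 and 487 without hyperplasia 22, and 1464 to 2223 lower. Genes whose libraries do not overlap became 149 higher with DESeq2 size factors, and 810 higher and 3934 lower without both pools, where normal gland is a single library. Leaving out 1 library, which by construction lets more genes separate, gave 356 to 760 higher and 972 to 1791 lower. Between 18 and 21 lists stood above the median of well-expressed genes with 1 library left out, and 28 to 31 above that of all genes. Higher against lower calls at an unadjusted p, 732 and 1740, stood at 850 and 1751 with upper-quartile scaling and at 386 and 2100 with DESeq2 size factors.

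Of 165 named genes 15 changed sign under some alternative, none of them past the threshold. Krt14 (main 0.07) was -0.32 with DESeq2 size factors and by the DESeq2 Wald test, 0.00 with upper-quartile scaling, -0.04 without a filter and with only the 8 libraries, -0.05 without the most abundant ID, -1.11 among core regions and -1.70 by limma voom. Erbb3 was -0.06 with DESeq2 size factors and by the Wald test, -0.68 without the pools, -1.92 among core regions and -1.13 by limma voom. Prlr was -0.25 with DESeq2 size factors and by the Wald test and -0.09 with the covariate. Cdh1 was 0.25 without the pools, 0.05 among core regions and 0.12 by limma voom, and Pgr 7.67 and 8.21 in the first 2 of these. Igtp was -1.72 among core regions and -0.95 by limma voom, H2-K1 -0.23 with the covariate and by limma voom, Wap -1.30, Esr1 -0.59 and Egfr 0.11 among core regions, Erbb2 0.37 with the covariate and Hba-a1 -4.09 by limma voom. Ms4a1 and Ly6g were 0 without the pools and among core regions, which hold none of their counts. With 1 library left out, ranges that crossed 0 were -1.87 to 0.79 for Krt14, -1.46 to 1.01 for Erbb3, -0.20 to 1.04 for Prlr, -0.41 to 0.11 for Cdh1, -6.20 to 2.57 for Pgr, -2.27 to 2.67 for Igtp, -0.42 to 0.82 for H2-K1, -0.07 to 3.27 for Wap, -0.28 to 1.34 for Esr1 and -0.69 to 0.22 for Lcn2, and Ly6g ran from -6.77 to 0. The causes were not tested. No paired analysis was possible because hyperplasia and normal gland share no replicate number.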
